A study of Mus musculus with 32 samples.

Results

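Cajal-Retzius cells were selected from single-cell RNA counts of the embryonic mouse cortex by their transcripts. A cell was a barcode with at least 1000 UMIs and 500 genes, where a UMI (unique molecular identifier) marks a captured RNA molecule. It was taken as a Cajal-Retzius cell when it held at least 3 UMIs of Reln, at least 1 UMI of Trp73, Lhx1 and Lhx5 summed, and 0 UMIs of Gad2 and of Sox2. Of 143705 cells in 32 libraries, 663 met this rule, which is 0.461%. They numbered 213 at E12.5, 185 at E14.5, 93 at E16.0 and 172 at E17.5, and between 4 and 43 in a library.

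Each library held the dorsal telencephalon, the part of the forebrain that becomes the cortex, of a single C57BL/6J embryo that was wild type (WT) or heterozygous for Chd8 (Chd8+/-, het). Chd8 encodes a chromatin remodelling enzyme, and the labels do not describe how the allele was made. There were 4 WT and 4 het libraries at each stage, 2 males (M1, M2) and 2 females (F1, F2) per group, and WT and het embryos were matched in pairs by litter and sex. Medial tissue, which borders the cortical hem, had been cut away, and all embryos shared this dissection. Stages came from different litters, so stage and litter cannot be told apart.

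Cajal-Retzius cells are among the earliest neurons of the cortex. They arise at its edges, among them the cortical hem, and spread over the surface within the marginal zone. They secrete reelin, the glycoprotein product of Reln, which binds the receptors Vldlr and Lrp8 on migrating neurons and acts there through Dab1. Trp73 encodes p73, a relative of p53, and Lhx1 and Lhx5 encode LIM-homeodomain transcription factors. Gad2 marks interneurons, some of which also make reelin, and Sox2 marks progenitors. Most Cajal-Retzius cells of the mouse cortex die after birth.

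The rule drew its edge through different amounts of Reln at different stages. The median cell that met it held 5 Reln UMIs at E12.5 (quartiles 4 and 7), 25 at E14.5, 34 at E16.0 and 26 at E17.5. Among the 213 cells of E12.5, 44 stood at exactly 3 Reln UMIs (20.7%), and 75 further cells failed only because they held 2. At the later stages 3, 3 and 4 cells stood at 3 UMIs, and 2 cells per stage failed only with 2. Another 221 cells at E12.5 held at least 3 Reln UMIs but none of Trp73, Lhx1 and Lhx5, against 37, 15 and 36 later. The Sox2 criterion alone removed 51, 17, 8 and 6 cells, and the Gad2 criterion 1, 0, 0 and 1. Trp73 was present in 169, 165, 82 and 134 cells, and all of Trp73, Lhx1 and Lhx5 in 90, 104, 50 and 62 cells from E12.5 to E17.5.

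Levels are given as CPM, the UMIs of a gene per 1000000 UMIs summed over the Cajal-Retzius cells of a library, for the 31 libraries with at least 5 such cells. Lowest, median and highest library values are given, over 7 libraries at E12.5 and 8 at each later stage. Reln (5:21884454-22344702 in GRCm38, minus strand) stood at 639, 746 and 931 CPM at E12.5 and at 1898, 2507 and 4563 CPM at E14.5. It was 3079, 3874 and 5056 CPM at E16.0 and 2703, 3344 and 4206 CPM at E17.5. No E12.5 library reached the level of any later library. The medians of Trp73 were 215, 248, 285 and 210 CPM by stage, those of Lhx1 208, 164, 108 and 103 CPM, and those of Lhx5 205, 312, 314 and 351 CPM. These genes chose the cells, so their levels are a description and were not tested.

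Genes outside the rule were compared with the label, again as a description. Nhlh2, which encodes a basic helix-loop-helix factor of Cajal-Retzius cells, had medians of 707, 1228, 1494 and 1291 CPM by stage, against 40.5, 17.7, 9.83 and 5.31 CPM in all other cells. Levels in other cells are medians over all 8 libraries of a stage, unless another number is given. At least 1 Nhlh2 UMI was found in 92.5% of Cajal-Retzius cells at E12.5 and in 98.4%, 97.8% and 99.4% later. It was found in 2.19%, 0.505%, 0.294% and 0.54% of radial glia, progenitors chosen by Sox2 UMIs, which the rule excludes. Other neurons were left out of this comparison. The library medians of UMIs per cell overlapped between radial glia and Cajal-Retzius cells at every stage. At E12.5 they were 5913 to 12104.5 in radial glia and 3855 to 9462 in Cajal-Retzius cells. Calb2, the calcium-binding protein calretinin, had medians of 475, 639, 797 and 851 CPM, against 15 CPM or less in other cells.

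Markers of other cell types differed by list, from near 0 to above the level in other cells. Of the interneuron list apart from Gad2, 4, 4, 4 and 6 of 8 genes were detected by stage, and the summed level was 0 to 19.6 CPM in a library. Of 7 meningeal fibroblast genes, 5 were detected at E12.5, none at E14.5 and E16.0, and Col1a1 alone at E17.5. The 9 cortical plate genes summed to medians of 1037, 724, 511 and 328 CPM by stage, against 832, 3285, 3038 and 2694 CPM in other cells. At E12.5 the intermediate progenitor and radial glia lists stood at 960 and 1004 CPM, against 1143 and 3053 CPM in other cells. Neurod6, a factor of cortical excitatory neurons, gave at least 1 UMI in 52.6%, 38.9%, 25.8% and 17.4% of Cajal-Retzius cells, and in 30.8%, 18.6%, 7.23% and 6.76% of them after thinning to 3000 UMIs. Of the thalamic eminence list, Barhl2 and Lhx9 were present, while Gbx2 and Olig3 were at 0 at every stage. The list summed to medians of 367, 223, 123 and 125 CPM, against 61.1, 27.4, 20.6 and 16.3 CPM in other cells. The subplate list had medians of 88.7, 248, 238 and 136 CPM, against 104, 103, 92.7 and 33.9 CPM in other cells. For the cortical hem and choroid list they were 44.3, 22.1, 19.4 and 5.62 CPM, against 13.4, 0.193, 0.34 and 1.69 CPM.

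Several libraries stood apart. In 3 het libraries at E12.5, M1, F1 and F2, the median cell held 6154, 4166.5 and 6136.5 UMIs, against 8763.5 to 10727 in the other E12.5 libraries. At E17.5, WT M1, het M1 and het F1 had immediate early genes summing to 949, 784 and 831 CPM in their other cells, against 255 to 549 CPM in the remaining E17.5 libraries. In WT F1 at E16.0, 1 of its 7 Cajal-Retzius cells was 43.6% globin UMIs, while the next highest cell of all 663 had 0.241%, and without it the Reln level of that library was 3783 in place of 3079 CPM. Any pair of libraries shared between 7 and 66 barcodes, and no barcode was a Cajal-Retzius cell in more than 1 library. Total UMIs per library ran from 14710694 to 66499864, and the Cajal-Retzius cells of a library with a level held 56191 to 403302 UMIs.

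In WT libraries the share of Cajal-Retzius cells was lower at E16.0 than at E14.5 and E17.5. In WT libraries they were 0.667% ± 0.156 of cells at E12.5, 0.640% ± 0.119 at E14.5, 0.177% ± 0.059 at E16.0 and 0.639% ± 0.338 at E17.5 (SD, n = 4). With all UMIs, every WT library at E16.0, the highest at 0.247%, lay below every WT library of the other stages, the lowest at 0.356%. The steps into and out of E16.0 were -0.462 and 0.461 percentage points, each with an exact permutation p of 0.0286, two-sided, the smallest that 4 against 4 libraries can give, and 0.0571 after adjustment over 4 steps. Thinned to 3000 UMIs, these steps were -0.33 and 0.438 points with an adjusted exact permutation p of 0.0381. Without WT F1 at E17.5, the library with the highest share (1.13%), the second step was 0.299 points unthinned, and without the deepest cells, those with over 2 times the median UMIs of their library, it was 0.293.

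The E12.5 share depended on depth. After each cell was thinned to 3000 UMIs, which left out cells with fewer (0 WT and 2325 het cells at E12.5), the WT share at E12.5 was 0.218%, against 0.497% at E14.5, 0.167% at E16.0 and 0.604% at E17.5. Unthinned, E14.5 minus E12.5 was -0.0272 points in WT (exact permutation p = 0.886, unadjusted, 4 against 4 libraries). Thinned, it was 0.279 points, with an adjusted exact permutation p of 0.0381. Thinned to 2000 UMIs, the WT shares were 0.108%, 0.452%, 0.143% and 0.453% from E12.5 to E17.5, so that E12.5 lay below E16.0. The order of E12.5 among the stages was therefore not read from these shares.

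**Figure D1:**
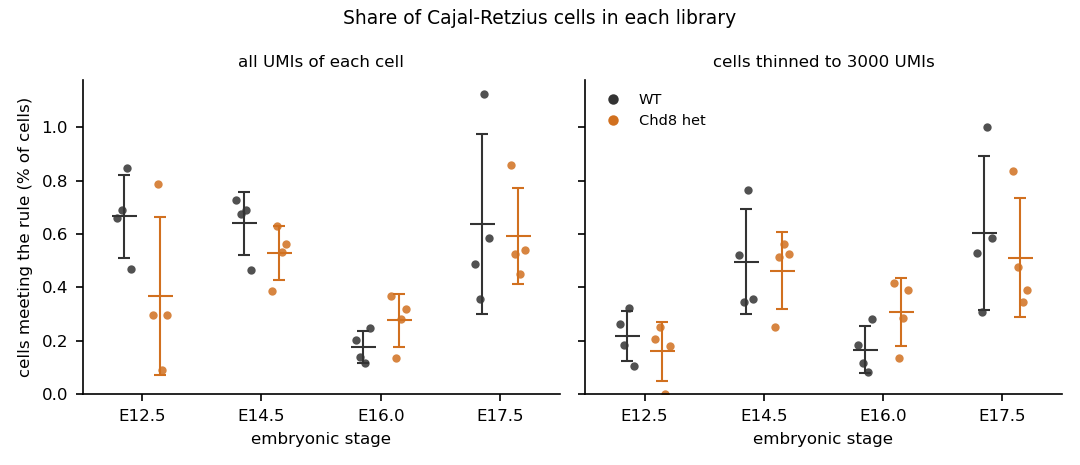
Share of Cajal-Retzius cells in each library (percent of cells, vertical axis) by embryonic stage, with all UMIs (left) and with cells thinned to 3000 UMIs (right). Points are libraries, dark for WT and orange for Chd8 het, and bars are the mean and SD over 4 libraries. The WT mean at E16.0, 0.177% and 0.167%, is below those at E14.5 and E17.5 in both panels, and the WT mean at E12.5 is 0.667% on the left and 0.218% on the right.

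Between het and WT embryos the share of Cajal-Retzius cells did not differ past the threshold at any stage. Het libraries had 0.369% ± 0.297 at E12.5, 0.528% ± 0.102 at E14.5, 0.276% ± 0.1 at E16.0 and 0.593% ± 0.181 at E17.5 (SD, n = 4). Het minus WT was -0.298 points at E12.5, -0.112 at E14.5, 0.099 at E16.0 and -0.0451 at E17.5, with exact permutation p of 0.114, 0.229, 0.143 and 0.8 (two-sided, 4 against 4). The average over stages was -0.0891 points (permutation p = 0.217), and het was the higher in 7 of 16 pairs. The lowest het shares at E12.5, 0.0917%, 0.297% and 0.298%, were those of the 3 shallow libraries. Without them a single het library, M2 with the highest het share of that stage, was left at E12.5, and its difference from WT was 0.122 points. The average was -0.0485 points without WT F1 of E17.5. With cells thinned to 3000 UMIs, het minus WT was -0.0582 points at E12.5 (exact permutation p = 0.486) and -0.0112 on average (permutation p = 0.853). Thinned to 2000 UMIs, it was -0.0606 points at E12.5 (exact permutation p = 0.0286, adjusted 0.143) and -0.0148 on average (permutation p = 0.75).

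Cajal-Retzius cells changed in many genes between stages. Summed counts of 23 libraries with at least 10 Cajal-Retzius cells were fitted with edgeR's quasi-likelihood test for 5398 genes. E16.0 was not in this fit, since only 1 WT library reached 10 cells, and neither was het F1 at E12.5 with 4 cells. Comparisons of stages averaged WT and het libraries and took the WT and het embryos of a litter-matched pair as independent. Within pairs, deviations from the group means correlated at 0.0578 to 0.443, so p-values between stages may be too low. From E12.5 to E14.5, 749 genes rose and 704 fell at a Benjamini-Hochberg adjusted p under 0.05. From E14.5 to E17.5, 749 rose and 765 fell, and over the whole span 1412 rose and 1339 fell. Called genes were 26.9% of those tested (13.9% up, 13.0% down) in the first step, 28.0% (13.9% up, 14.2% down) in the second and 51.0% (26.2% up, 24.8% down) over the span. In cells without a Neurod6 UMI, 602, 947 and 1715 genes of 4088 were called, of which 559, 891 and 1647 were also called in all Cajal-Retzius cells. Cells without Neurod6 are a part of the same cells, so nothing is read from this overlap. In WT libraries alone, 811, 583 and 1834 genes of 4770 were called.

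Ndnf, Rgs4, Cryab and Gdf5 were near or at 0 at E12.5 and among the genes that rose most. Ndnf (6:65671590-65712326 in GRCm38, plus strand) encodes a secreted factor that marks Cajal-Retzius cells and some interneurons of the outer cortical layer. It had no UMI in the 7 libraries at E12.5, and 77, 131 and 197 CPM (lowest, median, highest) at E14.5. At E16.0 it was 320, 466 and 756 CPM and at E17.5 605, 862 and 1166 CPM. The stages did not overlap between E12.5, E14.5 and the 2 later stages. With the floor of 3 UMIs over the E12.5 libraries, Ndnf was at least 495-fold higher at E17.5. An Ndnf UMI was found in 0 of 213 cells at E12.5, which sets no limit on cells expressing the gene. At the later stages it was found in 51.9%, 92.5% and 94.8% of Cajal-Retzius cells, or 27.7%, 74.7% and 81.8% when thinned to 3000 UMIs.

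Rgs4, a regulator of G protein signalling, had 2 UMIs in all at E12.5 and levels of 406, 658 and 947 CPM at E17.5. That is a pooled ratio of 590, with a counting interval of 163 to 4880. Rgs4 was already 250, 278 and 395 CPM at E14.5, above every E12.5 library. Cryab, a small heat shock protein, had 0 UMIs at E12.5 and 182, 271 and 335 CPM at E17.5, at least 152-fold higher. Gdf5, a ligand of the BMP family, had 0 UMIs at E12.5 and 136, 198 and 342 CPM at E17.5, at least 118-fold higher. Cryab overlaps Hspb2 on the opposite strand, and whether counting used strand is not given in the sources used here.

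Cxcl12, Ramp1, Thy1 and Pnoc rose between E14.5 and E17.5. Cxcl12, a chemokine best known here as the meningeal attractant of Cajal-Retzius cells, was 0, 4.36 and 14.8 CPM at E12.5 and 40.9, 75.5 and 94.3 CPM at E14.5. It reached 186, 497 and 753 CPM at E16.0 and 777, 997 and 1442 CPM at E17.5, so that no 2 stages overlapped. Its log2 fold change from E14.5 to E17.5 was 3.92 (SE 0.17, adjusted p = 4.38e-21, edgeR). Other cells held medians of 12.6 to 43.3 CPM. The meningeal gene list in the Cajal-Retzius cells was at 0 in every library of E14.5 and E16.0, when Cxcl12 was already above every E12.5 library. At E17.5 the list had a median of 10.5 CPM and a highest value of 22.8 CPM, against 6.76 and 13.2 CPM in other cells. All of it was Col1a1 (17 UMIs), with Col1a2, Col3a1, Dcn, Lum, Aldh1a2 and Foxc1 at 0. The part of meningeal transcripts in the step to E17.5 was not tested. Ramp1, a partner of the calcitonin receptor-like receptor, went from a median of 2.53 CPM at E12.5 to 56.8, 181 and 443 CPM. Thy1, a surface protein of maturing neurons, had 0 UMIs at E12.5, a median of 9.54 CPM at E14.5, and 76.5, 142 and 197 CPM at E17.5, at least 70-fold above E12.5. Pnoc, the precursor of nociceptin, held 3 UMIs at E12.5 and 60.7, 119 and 214 CPM at E17.5, a pooled ratio of 81 with a counting interval of 27.3 to 396.

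Crabp2, Nrp2, Lamp5 and Ackr3 fell until no UMI was left at E17.5. Crabp2, a retinoic acid-binding protein, was 522, 622 and 1120 CPM at E12.5, 45.4, 91.3 and 133 CPM at E14.5, and 0, 6.59 and 38.1 CPM at E16.0. All 8 libraries were at 0 at E17.5, at least 324-fold lower than at E12.5. Nrp2, a semaphorin co-receptor, was 104, 192 and 314 CPM at E12.5 and 0, 17 and 28.8 CPM at E14.5, and was at least 108-fold lower at E17.5. Lamp5, a membrane protein of the LAMP family, was 88.7, 114 and 192 CPM at E12.5 and at least 61.7-fold lower at E17.5. Ackr3, a scavenging receptor of Cxcl12, was 9.57, 57.6 and 73.9 CPM at E12.5 and at least 29.4-fold lower. Its partner Cxcr4, the signalling receptor, had medians of 52.3, 88.1, 115 and 121 CPM and did not pass the test from E12.5 to E17.5 (log2 fold change 0.93, SE 0.47, adjusted p = 0.113, edgeR). It passed edgeR's test without WT F1 of E14.5 (0.94, adjusted p = 0.0047), without het M1 of E12.5 (1.22, adjusted p = 0.0452) and without Neurod6 cells (1.26, adjusted p = 0.0457).

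**Figure D2:**
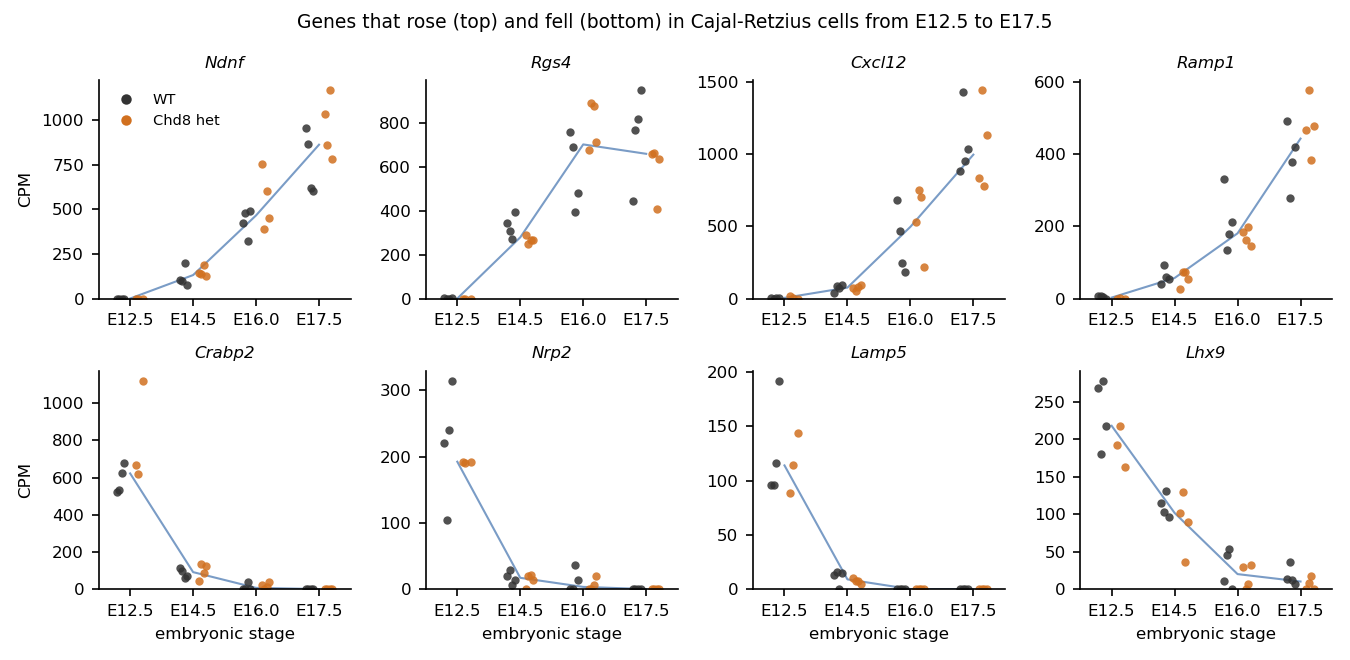
Levels (CPM, linear axis) of 8 genes by embryonic stage, each point a library, dark for WT and orange for Chd8 het, with the median of each stage joined by a line. Ndnf, Rgs4, Cxcl12 and Ramp1 are near 0 at E12.5, and Crabp2, Nrp2 and Lamp5 are at 0 at E17.5 in all 8 libraries.

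Among the genes with the largest changes were also markers of other cells. Fezf2, of the cortical plate list, was among the 10 largest falls from E12.5 to E17.5 (log2 fold change -5.37, SE 1.07). Mfap4, of the intermediate progenitor list, was among the 10 largest falls from E12.5 to E14.5 (-3.36, SE 0.35). Rgs5, a regulator of G protein signalling that serves as a pericyte marker, held 1 UMI at E12.5 and had a median of 66.1 CPM at E14.5, the lowest library at 30.7 CPM, a pooled ratio of 106 with a counting interval of 18.7 to 4234. The 5 pericyte genes summed to medians of 0, 66.1, 116 and 104 CPM by stage, against 26.3, 29.2, 70.3 and 96.2 CPM in other cells. Of the 5, 3 were detected at E12.5, 4 at E14.5, 2 at E16.0 and 4 at E17.5, and Kcnj8 was at 0 at every stage. At E16.0, where the median sum was highest, Pdgfrb and Vtn were at 0 as well. At E14.5 the median of the sum was the same as that of Rgs5 alone. The part of pericyte transcripts in the Rgs5 difference was not tested. Hbb-y, an embryonic globin, was 29.6, 244 and 773 CPM at E12.5 and at 0 in all libraries at E17.5, while other cells held a median of 3755 CPM of it at E12.5. The part of free globin RNA in this difference was not tested.

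The libraries of E16.0 took no part in choosing these genes, but those of E12.5, with which they are compared here, did. Of the 10 genes that rose most from E12.5 to E17.5, all E16.0 libraries lay above all E12.5 libraries for 9, and of the 10 that fell most, all lay below for 7. Over all 5398 genes tested, the E16.0 libraries lay wholly above those of E12.5 for 6.39% and wholly below for 4.89%. Since the genes were chosen for a large difference from the same E12.5 libraries, nothing is read from the counts against these shares. The E16.0 median lay between those of E14.5 and E17.5 for 9 of the 10 that rose and for 3 of the 10 that fell, while 6 of the others that fell had medians of 0 at both E16.0 and E17.5. In a fit that took libraries with at least 5 Cajal-Retzius cells, 411 genes (8.49% of 4839) differed between E14.5 and E16.0 and 312 (6.45%) between E16.0 and E17.5.

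Transcription factors of Cajal-Retzius cells split into those that fell and those that rose. Of 16 tested genes of a Cajal-Retzius list outside the rule, 6 rose and 8 fell from E12.5 to E17.5, where 26.2% of all genes rose and 24.8% fell. The list's median log2 fold change was -0.34, against 0.02 over all genes. Nhlh1, a basic helix-loop-helix factor of newborn neurons, was 103, 108 and 131 CPM at E12.5 and 0, 1.26 and 14.6 CPM at E17.5 (log2 fold change -4.66, SE 0.36). Ebf1, a helix-loop-helix factor, was 279, 330 and 461 CPM at E12.5, with a median of 81.5 CPM at E14.5 and 46.3 CPM at E17.5 (-2.87, SE 0.22), and Ebf2 changed by -2.59 (SE 0.21). Tbr1, a T-box factor of early cortical neurons, had medians of 904, 485, 452 and 266 CPM (-1.80, SE 0.14). Nr2f2, a nuclear receptor, rose by 1.32 (SE 0.15), from a median of 230 CPM at E12.5 to 658 CPM at E14.5. Calb2 rose by 0.57 (SE 0.16, adjusted p = 0.0033, edgeR), and did not pass the test without the deepest cells (0.29, adjusted p = 0.335) or without cells holding a Neurod6 UMI (0.51, adjusted p = 0.226).

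Among LIM factors outside the rule, Lhx9 and Lhx2 fell. Lhx9 was 163, 218 and 278 CPM at E12.5, 36.1, 102 and 131 CPM at E14.5, and 0, 10.1 and 36.1 CPM at E17.5, with no overlap between E12.5 and the other stages (log2 fold change -4.47, SE 0.29). Lhx2, a factor of cortical progenitors, went from a median of 662 CPM to 171 CPM (-2.01, SE 0.15). Of 8 tested LIM cofactors and LIM-homeodomain genes, 1 rose and 4 fell from E12.5 to E17.5, against 26.2% and 24.8% of all genes. Of those that fell, Ldb1, a LIM cofactor, did not pass the test under several alternatives, among them WT libraries alone (-0.79, adjusted p = 0.0833, edgeR).

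Cdkn1a, which encodes the cell cycle inhibitor p21, stood out at E12.5. Ratios to other cells were ranked with 10 CPM added to both levels and with Gm and Rik symbols left out. On this scale only Reln and the antisense gene Lhx1os had higher ratios at E12.5. The addition lowers most the ratios of genes nearly absent elsewhere, such as Trp73, at 215 CPM against 1.07 CPM in other cells. Cdkn1a was 472, 744 and 1020 CPM at E12.5, against a median of 11.4 CPM in all other cells of the same 7 libraries. At E14.5 it was 28.9, 174 and 281 CPM, at E16.0 26.4, 92.7 and 146 CPM, and at E17.5 11.6, 41.1 and 92.5 CPM, when other cells held 8.29 CPM. Every E12.5 library stood above every later library. The log2 fold change from E12.5 to E17.5 was -4.13 (SE 0.37, adjusted p = 3.16e-08, edgeR). A Cdkn1a UMI was found in 77.9% of Cajal-Retzius cells at E12.5 and 56.8%, 36.6% and 24.4% later, or 63.5%, 32.8%, 19.3% and 10.1% after thinning to 3000 UMIs. In radial glia the share was 3.62%, 1.59%, 1.67% and 2.7%, a comparison with progenitors and not with other neurons.

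Most other genes of the p53 list fell as well. Cdkn1a, Mdm2, Ccng1, Bbc3, Phlda3 and Perp are known targets of p53, and p73 can bind many of the same sites. Of 11 tested genes of this list apart from Trp73, 9 fell and 1 rose from E12.5 to E17.5, and 8 fell already by E14.5. Over all genes, 24.8% fell and 26.2% rose over the span and 13.0% fell by E14.5. The median log2 fold change was -1.42, against 0.02 over all genes. Mdm2, the ligase that degrades p53, was 59.1, 115 and 126 CPM at E12.5 and 9.02, 35.1 and 53.1 CPM at E17.5 (-1.72, SE 0.23). Ccng1, cyclin G1, had medians of 117, 64, 66.3 and 40.9 CPM (-1.64, SE 0.23). Bbc3, which encodes the death-promoting protein PUMA, had medians of 149, 71.9, 73.8 and 70.1 CPM (-1.01, SE 0.21). Trp53 itself had medians of 113, 81, 41.1 and 39 CPM (-1.54, SE 0.23). Sesn1, a stress-induced sestrin, was the 1 that rose (0.78, SE 0.24), and did not pass edgeR's test without the deepest cells (0.36, adjusted p = 0.436), without the 3 libraries with high early genes (0.44, adjusted p = 0.272) or without het M2 of E12.5 (0.59, adjusted p = 0.106).

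**Figure D3:**
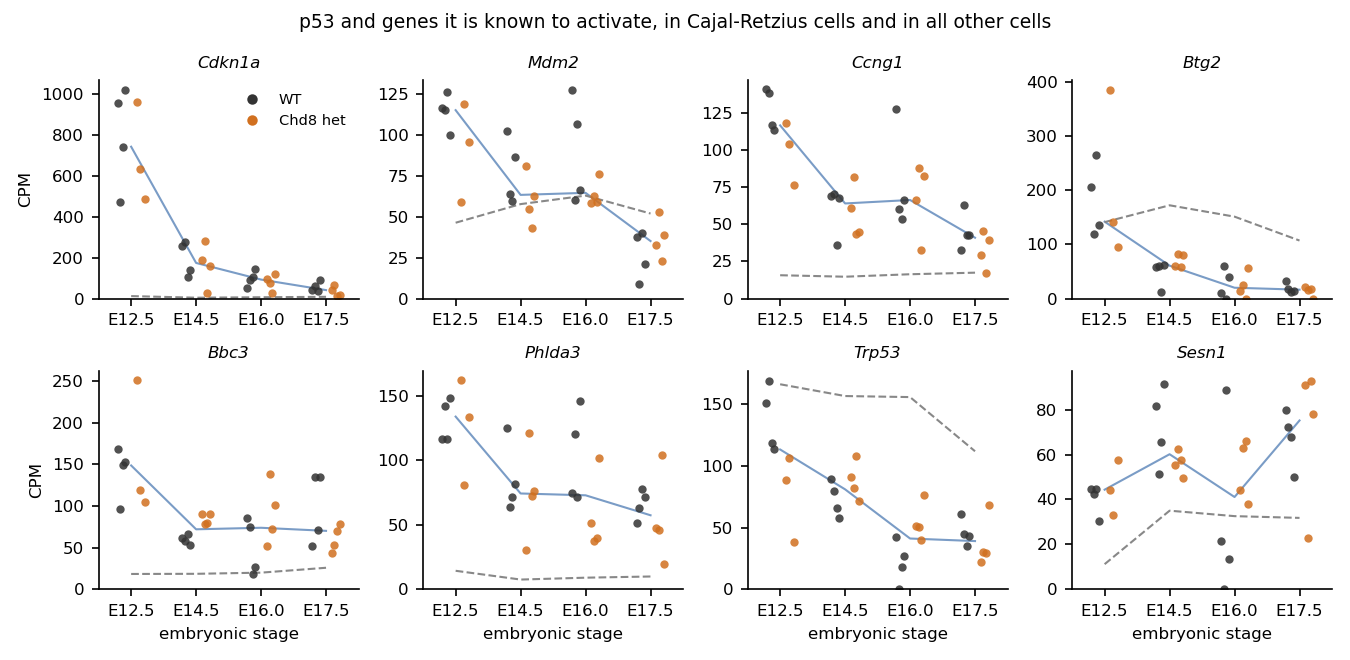
Levels (CPM, linear axes of different range) of Trp53 and 7 genes it is known to activate, by embryonic stage, each point a library, dark for WT and orange for Chd8 het, with stage medians of Cajal-Retzius cells (solid line) and of all other cells (dashed line). Cdkn1a falls from a median of 744 CPM at E12.5 to 41.1 CPM at E17.5, while other cells, over all 8 libraries of each stage, stay at 11.8 CPM or less.

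Genes of cell death did not move in a single direction. Of 8 tested, 3 rose and 4 fell from E12.5 to E17.5, where 26.2% of all genes rose and 24.8% fell. Diablo, which encodes a mitochondrial protein that frees caspases, went from 65.3, 81.8 and 124 CPM at E12.5 to 501, 665 and 897 CPM at E17.5 (log2 fold change 2.81, SE 0.16), with 207, 291 and 419 CPM at E14.5, so that these stages did not overlap. Other cells held medians of 78.7 to 96.5 CPM at all stages. Xiap, the caspase inhibitor that Diablo binds, rose by 1.29 (SE 0.41), and Cycs, cytochrome c, by 1.30 (SE 0.16). Bcl2l1, a survival factor, fell by 1.73 on the log2 scale (SE 0.19).

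Immediate early genes were higher at E12.5. Of 12 tested immediate early and heat shock genes, 0 rose and 9 fell from E12.5 to E17.5, with a median log2 fold change of -1.81. Over all genes, 26.2% rose and 24.8% fell, and the median was 0.02. Fos was 144, 218 and 412 CPM at E12.5 and 18, 64.3 and 191 CPM at E17.5 (-1.56, SE 0.38), and its 3 highest E17.5 values, 93.7, 113 and 191 CPM, were those of WT M1, het M1 and het F1. The heat shock genes Hspa8 and Hsp90aa1 did not pass the test, with log2 fold changes of -0.21 (SE 0.12) and 0.18 (SE 0.18). Without the deepest cells Hspa8 passed edgeR's test (-0.58, adjusted p = 0.0132). These genes also respond to dissociation, and its part in the stage difference was not tested.

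Genes of the synapse and of transmission rose together. Of 21 tested synapse and vesicle genes, 18 rose and 0 fell from E12.5 to E17.5, where 26.2% of all genes rose, and the median log2 fold change was 0.96. Of these 21, 8 rose by E14.5 and 10 rose from E14.5 to E17.5, where 13.9% of all genes rose in each step. Syn2, a synapsin that tethers synaptic vesicles, was 0, 13.1 and 38.3 CPM at E12.5 and 180, 224 and 266 CPM at E17.5 (3.98, SE 0.26), and it overlaps Timp4 on the opposite strand. Syp, the vesicle protein synaptophysin, was 15.4, 57 and 103 CPM at E12.5 and 117, 162 and 209 CPM at E17.5 (1.53, SE 0.29). Pclo, a scaffold of the active zone, rose by 1.70 (SE 0.34).

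Among 11 tested genes of amino acid transmission, 9 rose and 1 fell, where 26.2% of all genes rose and 24.8% fell. Gria1, an AMPA receptor subunit, was 0, 2.48 and 7.68 CPM at E12.5 and 39.1, 52.3 and 98.6 CPM at E17.5 (log2 fold change 5.28, SE 0.57). Grin1, the shared subunit of NMDA receptors, was 0, 6.87 and 29.8 CPM at E12.5 and 45.5, 50.2 and 114 CPM at E17.5 (2.86, SE 0.43). Glra2, a glycine receptor subunit of immature neurons, was the 1 that fell, from 47.1, 53.8 and 192 CPM to 0, 5.6 and 21.4 CPM (-3.68, SE 0.47). Slc17a6, the vesicular glutamate transporter VGLUT2, did not pass the test (0.45, SE 0.21, adjusted p = 0.0707, edgeR). It passed when WT F1 of E12.5, WT F2 of E14.5, or WT F1, het M2 or het F2 of E17.5 was left out, with log2 fold changes of 0.50 to 0.64, the highest without WT F1 of E17.5 (adjusted p = 0.00868, edgeR). Of 10 voltage-gated channel genes, 5 rose and 1 fell, to be read against the same shares. Those that rose included Cacna1a, a presynaptic calcium channel (2.56, SE 0.35), and Cacna2d2, a calcium channel subunit whose medians were 188, 301, 470 and 558 CPM (1.41, SE 0.16).

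Maturation genes of neurons were mixed. Of 20 tested, 6 rose and 10 fell from E12.5 to E17.5, where 26.2% of all genes rose and 24.8% fell. The share that rose was thus near that over all genes, and the share that fell was above that over all genes. Meg3, a long noncoding RNA, was 660, 873 and 1148 CPM at E12.5, 1782, 1939 and 2304 CPM at E14.5, 2770, 3522 and 5841 CPM at E16.0 and 7496, 8430 and 11818 CPM at E17.5, with no overlap between stages (3.35, SE 0.12). Other cells held medians of 153 to 628 CPM. Gap43, a growth cone protein, rose by 1.43 (SE 0.10), while the microtubule genes Tubb3 (-1.40, SE 0.13) and Dcx (-2.05, SE 0.21) fell.

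Of 16 tested genes of the Reelin pathway apart from Reln, 2 rose and 4 fell from E12.5 to E17.5, where 26.2% of all genes rose and 24.8% fell, and the median log2 fold change was -0.21. The receptor gene Lrp8 rose from a median of 14.9 to 39.3 CPM (1.22, SE 0.36). The other that rose was Pafah1b1, a subunit of an enzyme complex and a regulator of dynein (0.78, SE 0.21). Without the 3 E17.5 libraries with high early genes neither passed edgeR's test, Lrp8 at 0.93 (adjusted p = 0.0883) and Pafah1b1 at 0.12 (adjusted p = 0.648). In WT libraries alone none of the 4 that fell passed it, with Pik3r1 at -0.97 (adjusted p = 0.0783), Rnf7 at -0.35 (0.0872), Itgb1 at -0.53 (0.215) and Gsk3b at -0.38 (0.0806). Vldlr and Dab1 were too low to be tested. Dab1, the adaptor in reelin's target cells, had medians of 9.57, 15.5, 16.2 and 2.52 CPM, against 51.9 to 153 CPM in other cells. Of 15 tested guidance genes 4 rose and 7 fell, against 26.2% and 24.8% over all genes. The netrin receptor genes moved apart, Unc5b from a median of 17.7 to 85.1 CPM (2.34, SE 0.31) and Dcc from 211 to 39.3 CPM (-2.26, SE 0.21). Of 6 tested heterochronic genes 3 rose and 1 fell, and of 8 tested CHD remodellers 3 rose and 1 fell, to be read against the same shares over all genes, where Chd8 did not pass the test (0.29, SE 0.24).

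**Figure D4:**
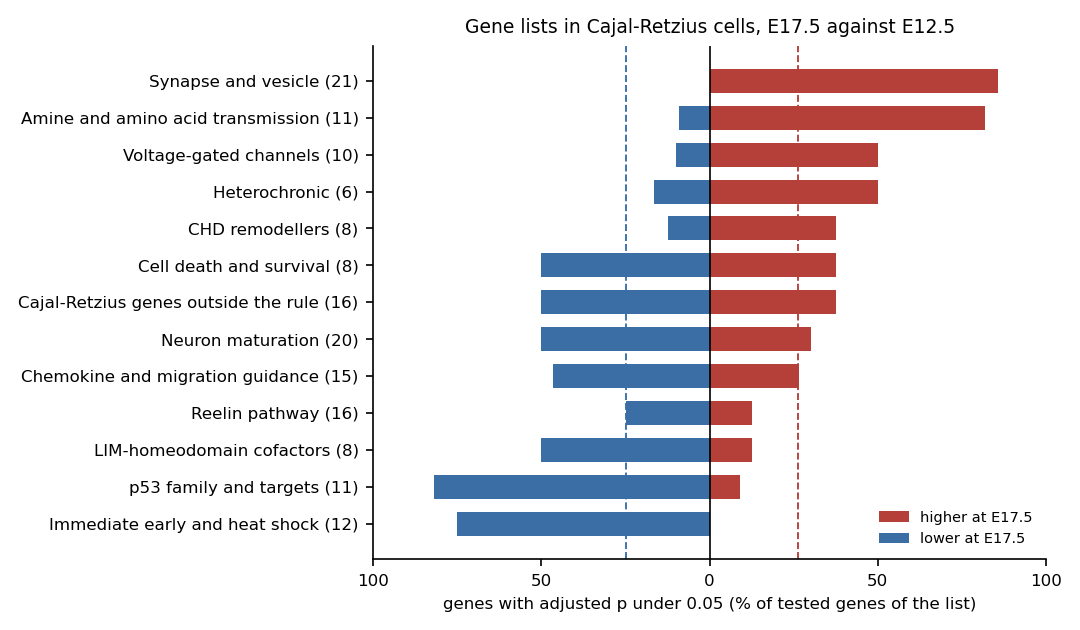
Percent of the tested genes of each list (number tested in brackets) that were higher (red, right) or lower (blue, left) at E17.5 than at E12.5 at an adjusted p under 0.05. Dashed lines mark the shares over all 5398 genes, 26.2% higher and 24.8% lower. The synapse list has 18 of 21 genes on the higher side and the p53 list 9 of 11 on the lower side.

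Stage changes sat beside changes in depth and in transcripts that mark other cell types. The median Cajal-Retzius cell held 7854, 9636, 8418 and 7253 UMIs by stage, and cells with over 2 times the median UMIs of their library were 4, 22, 27 and 66 of the Cajal-Retzius cells. Without these, 1162, 1099 and 1976 genes were called of 4359. Cortical plate, intermediate progenitor and radial glia lists all had their highest summed level in Cajal-Retzius cells at E12.5, with medians of 1037, 960 and 1004 CPM, and their lowest at E17.5, with 328, 251 and 190 CPM. Of their tested genes, 4 of 7, 6 of 6 and 4 of 5 fell from E12.5 to E17.5 and 0 rose. Over all genes, 24.8% fell and 26.2% rose. The median log2 fold changes of these lists were -2.24, -3.02 and -1.41, against 0.02 over all genes. The subplate list was lowest at E12.5, highest at E14.5 and lower again at E17.5, with medians of 88.7, 248, 238 and 136 CPM by stage. The part of these transcripts in the stage changes was not tested. Cells without a Neurod6 UMI cannot test it, since they are set by 1 gene and are shallower. Their median was 7147 UMIs at E12.5 and 6919 at E17.5, against 8731 and 10716.5 in cells with Neurod6.

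No gene passed the test between het and WT Cajal-Retzius cells. At E12.5, E14.5, E17.5 and on average over these stages, 0 of 5398 genes passed edgeR's test, which is 0.0% in each comparison. An unadjusted p under 0.05 was found for 151, 149, 208 and 183 genes, and by DESeq2 for 94, 84, 116 and 106, again with 0 passing. A test of whether the het effect differed between stages called 0 genes as well (168 with an unadjusted p under 0.05), and at E16.0, in the fit with at least 5 cells, 0 of 4839 were called (185 with an unadjusted p under 0.05). The median standard error of a log2 fold change was 0.35, 0.30 and 0.34 at the 3 stages and 0.20 on average. Taking the litter- and sex-matched pair as a block, edgeR gave 258, 218, 300 and 250 of 5324 genes with an unadjusted p under 0.05.

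Among genes that did not pass, Stag1, a cohesin subunit, had the lowest adjusted p of all, at E17.5 (log2 fold change 1.76, SE 0.40, adjusted p = 0.23, edgeR). On average over stages, Lingo1, a neuronal surface protein, had the lowest unadjusted p (0.62, SE 0.17, adjusted p = 1.00, edgeR), followed by Paqr4 (0.97), Mpped2 (-1.11), Vamp7 (0.59) and Rbm38 (-1.22). With the litter- and sex-matched pair as a block, Pcp4, a calmodulin regulator, was called at E12.5 (1.26, adjusted p = 0.00973, edgeR), against 0.92 and an adjusted p of 1 without the block. Pcp4 was singled out after its value was seen.

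Chd8 was lower in all cells of the het embryo in 15 of 16 pairs, and in 11 of 16 pairs within Cajal-Retzius cells. In WT Cajal-Retzius cells, Chd8 (14:52198151-52257780 in GRCm38, minus strand) was 41.2, 42.3, 57 and 48 CPM at E12.5 (M1, M2, F1, F2), 53.7, 38.3, 53.8 and 38.5 CPM at E14.5, 21.3, 60, 35.6 and 120 CPM at E16.0, and 84.3, 54.1, 60.5 and 71.2 CPM at E17.5. In het cells it was 44.3, 50.7, 0 and 28.7 CPM at E12.5, where the value of 0 came from 4 cells, 45.4, 31.3, 43.3 and 58.4 CPM at E14.5, 103, 12.5, 72.5 and 25.4 CPM at E16.0, and 47.4, 38, 58 and 58.7 CPM at E17.5. The genotypes overlapped at every stage. Over all libraries there were 182 Chd8 UMIs in WT cells (53.3 CPM) and 126 in het cells (48.4 CPM). The log2 fold change was -0.20 on average (SE 0.19, adjusted p = 1.00, edgeR), and -0.11, -0.04 and -0.45 at E12.5, E14.5 and E17.5. At 1 to 24 UMIs in each library with any, the depth limits how firmly the genotype can be read in these cells. The 3′ tag does not show whether it lies outside the altered part of the allele.

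**Figure D5:**
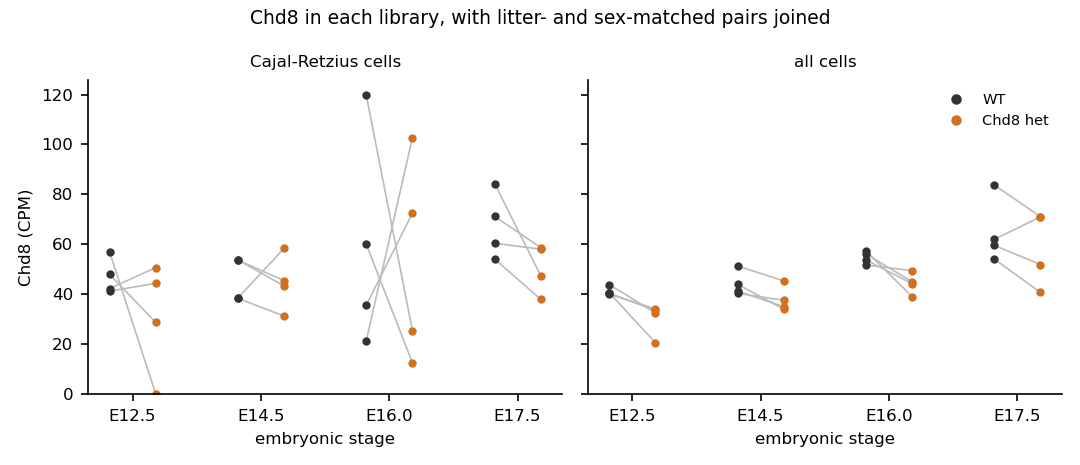
Chd8 level (CPM, vertical axis) in Cajal-Retzius cells (left) and in all cells (right) of each library by embryonic stage, dark for WT and orange for Chd8 het, with litter- and sex-matched pairs joined by lines. In all cells the het library is the lower in 15 of 16 pairs, and in Cajal-Retzius cells in 11 of 16.

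Crlf2 and Zcwpw1, which were higher in all cells of the het library in 16 of 16 pairs, were too rare in Cajal-Retzius cells to be tested. Crlf2, a cytokine receptor subunit, held 27 UMIs in WT and 37 in het cells (7.90 and 14.2 CPM) and was higher in het in 8 and lower in 7 of 16 pairs. Zcwpw1, a histone reader, held 9 and 11 UMIs (2.63 and 4.23 CPM), with 5 pairs in each direction.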

How the data were processed

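The authors deposited UMI counts per gene and barcode of 32 single-cell libraries (10x 3′ chemistry, per the labels' protocols), as whole numbers that were not normalised. The submitters' processing notes name STAR 2.7.9a, STARsolo, Cell Ranger and build mm10, their roles, cell calling and strandedness being not given in the sources used here. Of 145082 barcodes, those with at least 1000 UMIs and 500 genes were kept. No doublet caller was run, and free RNA was not modelled.

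Counts of the Cajal-Retzius cells were summed per library, each a single embryo, and fitted with edgeR 4.0.16 (quasi-likelihood, TMM, 6 stage-by-genotype groups sharing their spread) for libraries with at least 10 such cells. Genes were filtered with filterByExpr, and p-values were adjusted by Benjamini-Hochberg over 5398 genes, with a threshold of 0.05. Shares were compared by exact permutation over libraries, and their average over stages by 100000 random permutations of genotype within stages. DESeq2 1.42.0 was an alternative, and the closing section gives its effect with those of the other settings. Cells without a Neurod6 UMI and libraries that stood apart were left out as alternatives chosen after seeing the data. Counting intervals are 95% and cover counting error only. Comparisons with other cells of the same libraries were not tested, since the rule chose the cells. Radial glia, interneurons and excitatory neurons were set by counts of marker genes.

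The cells, the gene lists and the rule for named genes were chosen with earlier results of these data known. The rule took the 10 largest changes in each direction with an adjusted p under 0.05 and an average log2 CPM of at least 5, or the 5 lowest p-values where none passed, and from each list the 6 largest called genes and 4 of highest level. In 11 pairs, the correlation of deviations from the group means between the members of a pair ran from 0.0578 to 0.443, and the pairing itself comes from the series' design text. Positions are from GENCODE M21 (GRCm38), which held 99.6% of the gene identifiers. Some items are not reported here.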

Additional observations from a re-analysis of the deposited data

Results flagged for a closer look

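In 148 groups of 4 to 8 libraries, 12 values lay far from the rest of their group, where chance alone gives about 1 in 20. The groups of one stage hold both genotypes. The gap of each to its nearest neighbour, over the range of the group, passed Dixon's 95% value.

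At E12.5, Cajal-Retzius cells of het F2 had 1119.8 CPM of Crabp2, where the median library had 622 CPM, and 9.57 CPM of Ackr3, where the median was 57.6 CPM. Glra2 was 192 CPM in het M1 at E12.5, against a median of 53.8 CPM. Both libraries were among the 3 shallow ones. At E14.5, het F1 was low for Gdf5 (28.9 CPM, median 58.1) and Lhx9 (36.1 CPM, median 102) and high for Pnoc (28.9 CPM, median 0). It held 14 Cajal-Retzius cells, the fewest of that stage.

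At E16.0, WT M1 had 330 CPM of Ramp1 (median 181) and 0 CPM of Gria1 (median 42), and WT M2 had 105 CPM of Glra2 (median 6.59). In WT F1, the median Cajal-Retzius cell held 8088 UMIs, apart from the other WT libraries of E16.0. At E17.5, Glra2 was 21.4 CPM in WT F2 (median 5.6), and Jun was 284 CPM in het F1 (median 95.8), a library with high immediate early genes in its other cells too.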

How the results depend on the processing

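Over 413 named genes and comparisons, 12233 values under the alternatives kept their direction and their side of the threshold, 457 lost their call, 51 gained one and 1 turned its sign, that of Gabra2 from E12.5 to E14.5, to a log2 fold change of -0.99 without Neurod6 cells. Among called list genes, from E12.5 to E17.5, Ldb1 lost its call under 24 settings, Emx2 under 22, Gsk3b under 21, Chd9 under 9, Itgb1 under 5 and Bax under 4. With WT libraries alone Chd6, Gphn and Scn3a, the channel gene that fell, lost theirs too. These genes count in the LIM, Cajal-Retzius, Reelin, CHD, amino acid transmission, channel and, for Bax, p53 and cell death lists above. Apart from Hspa8, Cxcr4 and Slc17a6, given above, Cacna2d3, Epha3 and Rap1b gained a call from E12.5 to E17.5 under 1 to 3 settings each. No gene differed by genotype in any setting apart from Pcp4 under the replicate block.

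Genes called from E12.5 to E14.5, E14.5 to E17.5 and E12.5 to E17.5 were 602, 947 and 1715 of 4088 without Neurod6 cells. With WT libraries alone they were 811 and 583 of 4770 for the first and the second. Without a low-count filter they were 1754, 1731 and 3992 of 16461, and with DESeq2 1218, 1256 and 2493. With each library left out they ran from 1090 to 1518, 1323 to 1649 and 2295 to 2859. With the litter- and sex-matched pair as a replicate block, 1 gene was called between het and WT at E12.5, and 0 at E14.5, at E17.5 and on average. The block cannot be used between stages, since no pair spans them.

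The WT share step from E12.5 to E14.5 was 0.279 and 0.345 points when thinned to 3000 and 2000 UMIs, 0.23 with at least 5 Reln UMIs, 0.0181 with at least 2 UMIs of Trp73, Lhx1 and Lhx5, 0.0242 with Trp73 required and 0.0817 without Neurod6 cells, but -0.245 with at least 2 Reln UMIs and -0.129 without the deepest cells, against -0.0272. From E12.5 to E17.5 it was 0.386 and 0.346 points thinned, 0.21 with at least 5 Reln UMIs, 0.226 without Neurod6 cells and 0.0218 without E17.5 libraries with high early genes, but -0.241 with at least 2 Reln UMIs and -0.27 without the deepest cells, against -0.0285. Thinned to 3000 and 2000 UMIs, the step from E14.5 to E16.0 was -0.33 and -0.31 and from E16.0 to E17.5 0.438 and 0.311. The first was -0.282 without Neurod6 cells and the second 0.293 without the deepest cells, against -0.462 and 0.461. Without the 3 shallow het libraries, which had the lowest het shares and left 1 het library at E12.5, het minus WT was 0.122 there and 0.016 on average. Under the other alternatives, apart from leaving out 1 library at a time, it ran from -0.382 to -0.0582 at E12.5, -0.115 to -0.0336 at E14.5, 0.0719 to 0.14 at E16.0, -0.155 to -0.0275 at E17.5 and -0.117 to -0.0112 on average. Leaving out each library gave -0.0934 to 0.0332 for E12.5 to E14.5, positive without WT F1 of E12.5 or WT F2 of E14.5, -0.191 to 0.0657 for E12.5 to E17.5, positive without WT F1 of E12.5 or WT M1 or M2 of E17.5, 0.299 to 0.555 for E16.0 to E17.5, lowest without WT F1 of E17.5, and -0.139 to 0.117 for het minus WT at E17.5, where WT F1 and het F1 each turned the sign. Het minus WT ran from -0.438 to -0.206 at E12.5, -0.17 (without WT F2) to -0.0653 (without het M1) at E14.5, 0.0684 to 0.146 at E16.0 and -0.124 to -0.0485 (without WT F1 of E17.5) on average. The causes were not tested.

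A minimum of 20 cells left only E14.5, and at least 5 Reln UMIs left too few het libraries at E12.5, so the stage steps concerned were not run there. Cajal-Retzius cells per library limit the precision.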
